A study of Mus musculus with 11 samples.

Results

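Lipid droplet and fatty acid uptake genes were followed in mouse livers in which YAP, the transcriptional co-activator restrained by the Hippo kinases, was switched on for 3 or 7 days. The 10 genes were chosen by name for what they do, with earlier results of these data known. They were the droplet coat proteins Plin2, Plin4 and Plin5, the droplet fusion proteins Cidea and Cidec, and the nuclear receptor Pparg. The others, Cd36, Fabp1, Fabp4 and Lpl, take up, bind or release fatty acids. All 10 were among the 20893 genes measured. Of these, 9 passed the filter on low values and were tested with 14244 genes, and Cidea did not pass it.

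Hepatocytes store surplus fatty acids as triglyceride in lipid droplets, organelles with a neutral lipid core under a single phospholipid layer coated by perilipins. Perilipins and CIDE proteins set how fast the stored fat is broken down and how large the droplets grow. Fatty acids reach the cell after lipoprotein lipase has freed them from circulating triglyceride, cross the membrane with the help of CD36 and travel in the cytosol on fatty acid binding proteins, and PPAR receptors switch on many of the genes involved.

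Whole livers were measured by bulk RNA-seq, 1 library per liver, on a C57BL/6 background. The 4 control livers carried the genotype labelled ROSA26-rtTA-IRES-EGFP; WT and the induced livers that labelled ROSA26-rtTA-IRES-EGFP; tetYAP. Controls received doxycycline food for 7 days, 4 induced livers for 3 days and 3 induced livers for 7 days, so all 3 groups shared the drug and the ROSA26 allele. The 3-day livers differed from controls in the transgene and in the days on doxycycline. In this model (R26-lsl-rtTA/alb-CRE/tet-YAP) Cre under the albumin promoter, which acts in hepatocytes, frees the doxycycline-dependent activator rtTA, which drives a constitutively active YAP placed at the Col1A1 locus. The age of the mice is not given in the sources used here.

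The values were eRPKM, exonic reads per kilobase of a gene scaled to the size of its library, and a level in the following text is an eRPKM. Depth ran from 1251396 to 5495697 reads on genes in controls, from 2660233 to 3681416 after 3 days and from 5312486 to 5941357 at 7 days. The YAP targets Ctgf and Cyr61 had mean levels of 8.69 and 9.43 in controls, 24.1 and 39.0 at 3 days, and 96.7 and 91.0 at 7 days, whereas the mouse Yap1 row was at 13.9 to 21.1 in controls and 17.4 to 19.0 at 7 days. By Xist against Ddx3y, 2 of 4 controls, 2 of 4 livers at 3 days and all 3 livers at 7 days were female, so sex and induction were not balanced. Hepatocyte markers, albumin among them, were high in every liver, and they summed to 1476 to 4015 in controls and to between 1159 and 1310 at 7 days. Among controls this sum was smaller the deeper the library. It was 1476 in control liver 2, the deepest, and 4015 in control liver 4, the shallowest. The part of depth in this sum was not tested. Nothing in the labels says whether livers of a group came from separate litters, so the p-values measure only the spread between these livers.

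At 7 days against control, 1 of the 9 tested genes rose (Lpl) and 1 fell (Fabp1), and 7 of the 9 had no overlap between the groups. Of all tested genes 23.8% passed the same threshold (18% higher and 5.77% lower), so the 2 of 9 did not stand out. Of the 7 without overlap 5 were higher and 2 lower, where 50% of all tested genes had no overlap (36.7% higher and 13.3% lower). The median log2 fold change of the 9 genes was 0.77, beside 0.26 for all tested genes, and 7 of the 9 values were above 0. A gene was counted as changed when the limma p-value, Benjamini-Hochberg adjusted over all tested genes, was under 0.01 and the absolute log2 fold change on log2(eRPKM + 0.5) was above 0.5. In bulk tissue, fewer cells of one type and less RNA per cell cannot be told apart.

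At 3 days against control, 0 of the 9 genes passed, where 0.0421% of all tested genes did, all of them higher. Their median log2 fold change was -0.31, and 2 of the 9, Plin2 and Lpl, had an unadjusted limma p under 0.05, as did 12.1% of all tested genes. In limma-voom on recovered reads 0 passed as well. None of the 9 separated the groups fully, where 5.64% of all tested genes did (3.38% higher and 2.25% lower). At 7 days against 3 days, 2 genes rose (Lpl and Fabp4) and 1 fell (Fabp1), where 19.3% of all tested genes passed (14% higher and 5.31% lower). The groups had no overlap for 6 of the 9, 5 of them higher, where 45.1% of all tested genes had none (31.3% higher and 13.8% lower).

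**Figure D1:**
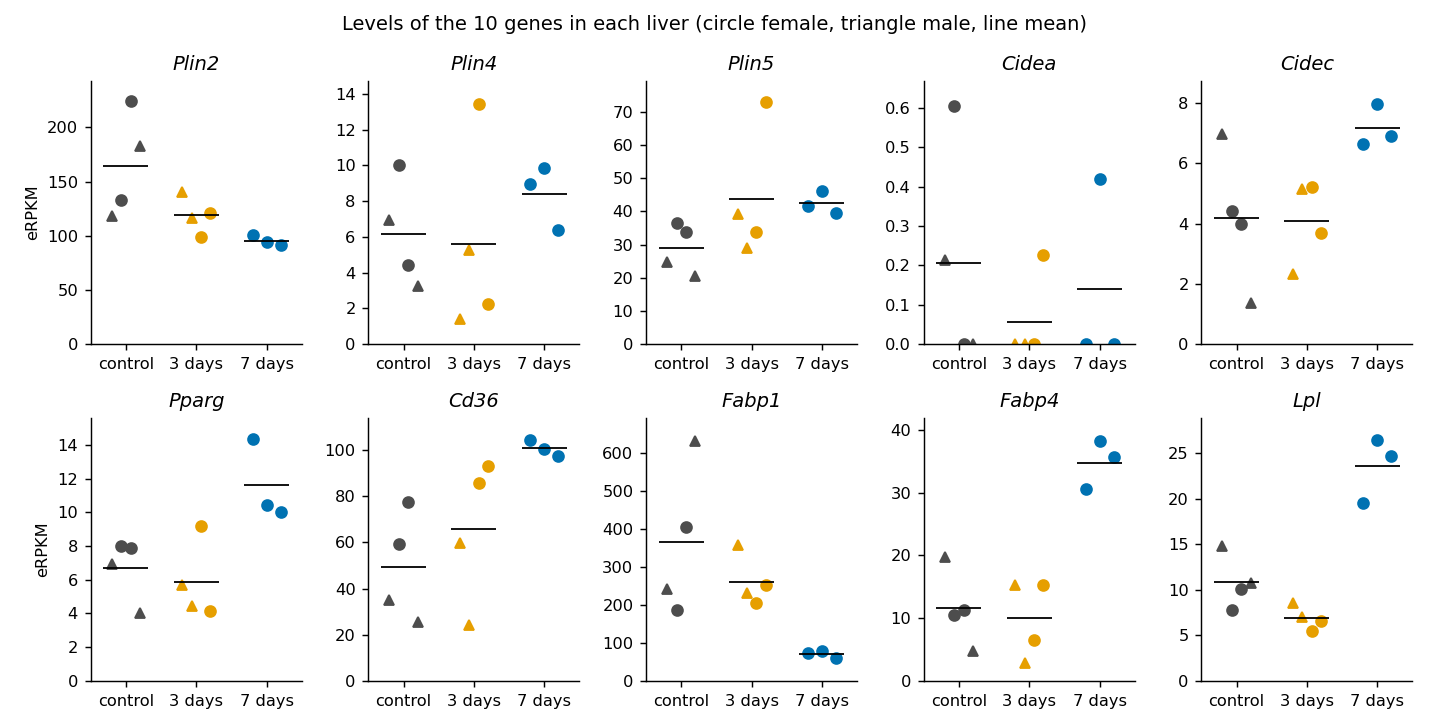
Level (eRPKM, each axis from 0) of the 10 genes in each liver, with 1 point per liver in control, 3-day and 7-day groups, circles for female and triangles for male livers by Xist against Ddx3y, and a line at the group mean. All 3 livers at 7 days lie below every control for Plin2 and Fabp1, and above every control for Plin5, Pparg, Cd36, Fabp4 and Lpl.

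Plin2 coats the droplets of most cells and is the most abundant perilipin of the liver. The gene lies on chromosome 4 (mm9, 86294290 to 86315964, minus strand). Its level was 118, 133, 224 and 183 in controls, numbered 1 to 4, then 141, 117, 99.3 and 121 after 3 days of induction, and 101, 94.1 and 91.5 after 7 days. The 7-day livers all lay below every control and varied least, with a coefficient of variation of 4.91% against 29.5% in controls, while the 3-day livers overlapped with both. The log2 fold change at 7 days was -0.74 (SE 0.21, limma adjusted p = 0.0146), which missed the threshold of 0.01. Without control liver 1, the lowest control, it was -0.88 and passed (adjusted p = 0.00631), and with log2 depth as a covariate it was -0.42 (adjusted p = 0.162).

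Plin5 joins droplets to mitochondria and restrains their breakdown in tissues that burn fat. It lies on chromosome 17 (mm9, 56251024 to 56257019, minus strand). Its level was 24.8, 36.5, 33.8 and 20.5 in controls, 39.1, 28.9, 33.9 and 72.9 at 3 days, and 41.7, 46.2 and 39.4 at 7 days. All 7-day livers were above all controls, by 1.47 times in the mean, and 3-day liver 4 stood far above every other liver. Neither the 3-day value of 0.53 (SE 0.26, limma adjusted p = 0.448) nor the 7-day value of 0.58 (SE 0.28, adjusted p = 0.124) passed on the log2 scale. Among controls the females, at 33.8 to 36.5, lay above the males, at 20.5 to 24.8, and in female livers alone the 7-day value was 0.27 (SE 0.28, adjusted p = 0.524).

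Plin4, a perilipin with a long repeat region that binds small new droplets, lies close to Plin5 on chromosome 17 (mm9, 56240014 to 56249225, minus strand). Its exons overlap those of Hdgfrp2, and the counting used no strand, so reads of the pair cannot be told apart. Its level was 6.97, 10.1, 4.41 and 3.24 in controls, 1.39, 5.30, 13.4 and 2.24 at 3 days, and 8.97, 9.84 and 6.41 at 7 days. The 3-day livers spread most, from below every control to above every control. The log2 fold change at 7 days was 0.51 (SE 0.57, adjusted p = 0.507), with a 95% interval from -0.72 to 1.73, and it was -0.34 with log2 depth as a covariate.

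Since eRPKM are per kilobase, the perilipins could be set against each other within a liver. Plin2 made up 74.1 to 88.5% of the summed level of the 3 genes in controls (mean 81.7% ± 6.50, SD, n = 4), 61.8 to 77.6% at 3 days (mean 71.1% ± 7.76, n = 4) and 62.7 to 66.6% at 7 days (mean 65.3% ± 2.24, n = 3). Every 7-day liver had a smaller Plin2 share than every control, and Plin5 took 27.6 to 30.8% at 7 days against 9.94 to 20.3% in controls. Among controls the Plin2 share was smaller the deeper the library, from 88.5% in control liver 4, the shallowest, to 74.1% in control liver 2, the deepest, and the 7-day livers were about as deep as control liver 2. The part of depth in this share was not tested. The difference in the Plin2 share at 7 days had an exact two-sided permutation p of 0.0571, or 0.343 adjusted over the 9 exact tests made, where the smallest p that the design allows is 0.0286. The summed level itself differed by -0.42 on the log2 scale at 7 days (exact permutation p = 0.114, adjusted 0.343).

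**Figure D2:**
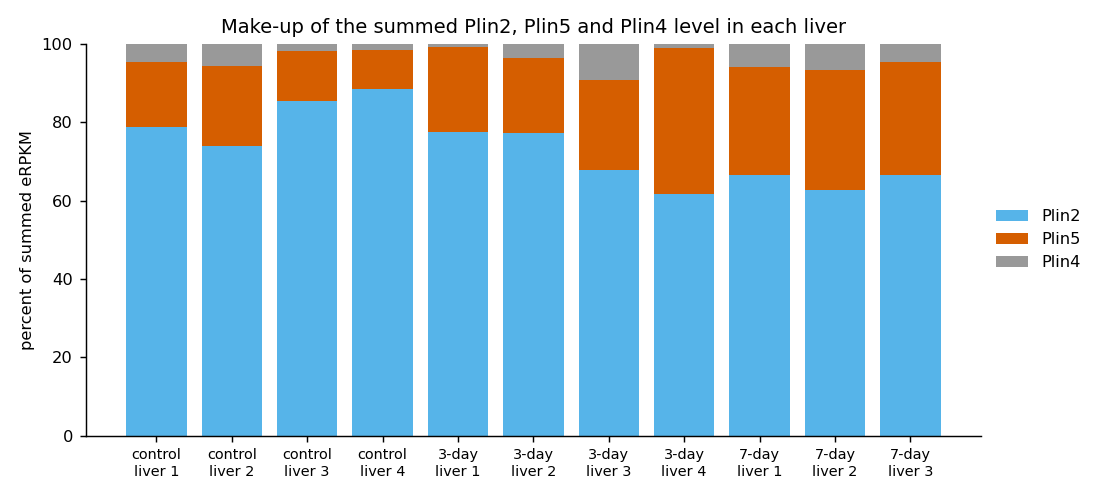
Stacked bars give the percent of the summed Plin2, Plin5 and Plin4 eRPKM that each gene took in each of the 11 livers. The Plin2 part was 74.1% or more in every control and 66.6% or less in every 7-day liver, and 67.7% and 61.8% in 3-day livers 3 and 4.

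The CIDE proteins sit where droplets touch and pass lipid from the smaller to the larger. Cidec, the form that lets droplets fuse in fat cells and in fatty livers, lies on chromosome 6 (mm9, 113374628 to 113385754, minus strand). Its level was 6.96, 4.41, 3.99 and 1.35 in controls, 2.33, 5.14, 5.22 and 3.68 at 3 days, and 6.64, 7.98 and 6.91 at 7 days. The 7-day livers lay above every 3-day liver but not above control liver 1, and the lowest control value rested on 3 reads. The log2 fold change at 7 days was 0.87 (SE 0.40, limma adjusted p = 0.106) and the one at 3 days was 0.08 (SE 0.37, adjusted p = 0.955). With log2 depth as a covariate the 7-day value was 0.07 (adjusted p = 0.900).

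Cidea, the CIDE protein of brown fat, was close to absent. It had 1, 4, 0 and 0 reads in controls, 0, 0, 0 and 1 at 3 days, and 0, 3 and 0 at 7 days. No more than 4 reads fell on it in any liver, in libraries of 1251396 reads or more, and the groups overlapped. The exact two-sided permutation p was 0.714 for 3 days and 0.829 for 7 days against control. A difference between groups was not detectable at this depth.

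Pparg encodes the nuclear receptor that drives fat storage genes in adipocytes and, when raised, in hepatocytes. It lies on chromosome 6 (mm9, 115311239 to 115440419, plus strand). Its level was 6.94, 7.98, 7.90 and 4.05 in controls, 5.71, 4.42, 9.18 and 4.13 at 3 days, and 14.3, 10.4 and 10.02 at 7 days. All 7-day livers lay above every other liver, and the 3-day livers covered the range of the controls. The log2 fold change at 7 days was 0.77 (SE 0.30, adjusted p = 0.0582), and against 3 days it was 0.97 (SE 0.30, adjusted p = 0.0233), and neither met the threshold. The second value passed in the fit without 3-day liver 3 (1.20, adjusted p = 0.00435) and in limma-voom on recovered reads (1.03, adjusted p = 0.00940). Over 25 alternative fits it ran from 0.45 to 1.20 (adjusted p up to 0.168). The value against control ran from 0.24 to 0.86 (adjusted p from 0.0294 to 0.451). Among controls the females, at 7.90 to 7.98, lay above the males, at 4.05 to 6.94. Control liver 2 had 8.67 times the Pparg reads of control liver 4, at 4.39 times its depth.

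PPAR receptors bind, with RXR, a direct repeat of the hexamer AGGTCA with 1 base between, and YAP acts through TEAD factors, which bind GGAATG. Promoters of 300 bases from RefSeq (GRCm38.p6; 250 before to 50 after the start site) were matched for 7 of the 10 genes, 11 promoters in all, and Cidea, Fabp4 and Lpl had no entry. Read on both strands, AGGTCA was present in 7 of the 11 promoters, of 5 genes, and in 16.3% of all 32851 promoters. GGAATG was present in 1 of the 11, that of Cidec, and in 14.7% of all. The 30-base windows with AGGTCA are shown because 4 of these 5 genes code for a droplet coat protein, the receptor itself or a fatty acid carrier at the membrane, and the Cidec window because it alone held the TEAD letters. Capitals mark the motif or its reverse complement, and each window reads 5′ to 3′ on the strand of the gene.
Plin2, chr4:86670260-86670289, minus strand: tttcaggaccccTGACCTaagtcagacagc
Plin5, chr17:56117701-56117730, minus strand: agtcctagtctgAGGTCAgccatggtgact
Plin5, second start, chr17:56117268-56117297, minus strand: gcatgagccctgAGGTCAgcgtccctgtca
Pparg, chr6:115361104-115361133, plus strand: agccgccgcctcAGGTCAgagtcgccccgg
Pparg, second start, chr6:115362328-115362357, plus strand: agggacgcgaggAGGTCAagaaggggcctg
Cd36, chr5:17836107-17836136, minus strand: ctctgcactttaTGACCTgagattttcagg
Cidec, chr6:113435833-113435862, minus strand: aagtttcgaactCATTCCccatgctctttt
The hexamer began 218 bases before the start site in Plin2 and 228 before it in Cd36, and close to the start in the Pparg promoters shown. Pparg had 3 promoters matched, and the hexamer was found only in those shown. The genes shown here for AGGTCA did not move one way: Plin2 was lower at 7 days, with Pparg, Cd36 and Plin5 higher, none past the threshold. Fabp1, the other gene with AGGTCA, fell by 2.20 on the log2 scale and passed (limma adjusted p = 0.000356). A letter match is a description of the sequence and does not show that a factor binds there.

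Cd36 is the membrane glycoprotein that helps long-chain fatty acids into cells, and its liver level is known to be higher in females. It lies on chromosome 5 (mm9, 17287508 to 17394777, minus strand). Its level was 35.1, 59.3, 77.6 and 25.7 in controls, 59.8, 24.4, 85.9 and 92.9 at 3 days, and 104, 100.4 and 97.4 at 7 days. The 7-day livers were above all others and varied least, with a coefficient of variation of 3.52%, against 47.6% in controls and 47.2% at 3 days. The log2 fold change at 7 days was 1.15 (SE 0.43, limma adjusted p = 0.0527), a ratio of means of 2.04.

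Cd36 also moved with sex, as read from Xist against Ddx3y. Female controls were at 59.3 to 77.6 and male controls at 25.7 to 35.1, and female 3-day livers were at 85.9 to 92.9 and male ones at 24.4 to 59.8. All 7-day livers were female. In female livers alone the log2 fold change at 7 days was 0.57 (SE 0.17, adjusted p = 0.0349, 2 controls, 3 livers at 7 days), close to the 0.67 obtained with log2 Xist as a covariate (adjusted p = 0.0743). The female 7-day livers lay above the female controls without overlap, by less than the pooled comparison gave.

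Fabp1, the liver fatty acid binding protein and one of the most abundant cytosolic proteins of hepatocytes, had the largest change of the 9 tested genes at 7 days against control. It lies on chromosome 6 (mm9, 71149821 to 71155017, plus strand). Its level was 242, 187, 406 and 632 in controls, 360, 232, 204 and 252 at 3 days, and 74.3, 79.9 and 60.2 at 7 days. The 7-day livers all lay far below every other liver, and the 3-day livers overlapped with the controls. Fabp1 fell by 2.20 on the log2 scale at 7 days (SE 0.35, limma adjusted p = 0.000356), to 0.195 times the control mean, and by 1.84 against 3 days (SE 0.35, adjusted p = 0.00158). At 3 days the value was -0.36 (SE 0.32, adjusted p = 0.688).

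The promoter of Fabp1 is shown because it alone among the 11 held the full repeat. AGGNCANAGGNCA, read on both strands, was found in 0.381% of all promoters (125 of 32851). The sequence runs from 250 bases before to the base before the start site, chr6:71199629-71199878 of GRCm38.p6, plus strand. Capitals mark the repeat in reverse complement, whose first base lies 67 before the start, then TATAAA at 30 before it and a further AGGTCA in reverse complement at 9 before it. The first hexamer of the repeat is itself a TGACCT match and was counted among those above. TATAAA was found in 13.6% of all promoters.
Fabp1: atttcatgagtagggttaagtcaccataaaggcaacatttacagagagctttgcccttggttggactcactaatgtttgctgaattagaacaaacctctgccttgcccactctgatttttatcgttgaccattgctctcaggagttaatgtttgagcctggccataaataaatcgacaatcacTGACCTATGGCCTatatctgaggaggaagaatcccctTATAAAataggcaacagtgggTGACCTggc

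Reads on Fabp1 did not follow depth. They numbered 478, 522, 496 and 401 in controls, 486, 427, 381 and 471 at 3 days, and 202, 241 and 162 at 7 days. Control liver 2 had 4.39 times the reads of control liver 4 but only 1.30 times its Fabp1 reads, so the spread of the control levels moved with depth. Albumin showed the same, with 2417 to 3102 reads in each of the 11 livers. Between livers of like depth, control liver 2 had 522 Fabp1 reads and the 7-day livers had 162 to 241. With log2 depth as a covariate Fabp1 changed by -1.37 on the log2 scale (SE 0.17, adjusted p = 0.000393), in the same direction and past the threshold. Without 7-day liver 3 the value against 3 days was -1.73 and did not pass (adjusted p = 0.0110).

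Other genes with dense reads were lower at 7 days too. Fabp1 had a mean of 935 reads per kilobase in controls. Of the 268 tested genes with at least 500, 106 fell and 0 rose at 7 days by the same limma threshold, with a median log2 fold change of -0.81. Fabp1 was the 17th lowest of them. In all, 822 genes (5.77% of those tested) fell. The 268 genes were picked by their reads in controls, the group they were compared with. The part of this choice and of depth in their falls was not tested.

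**Figure D3:**
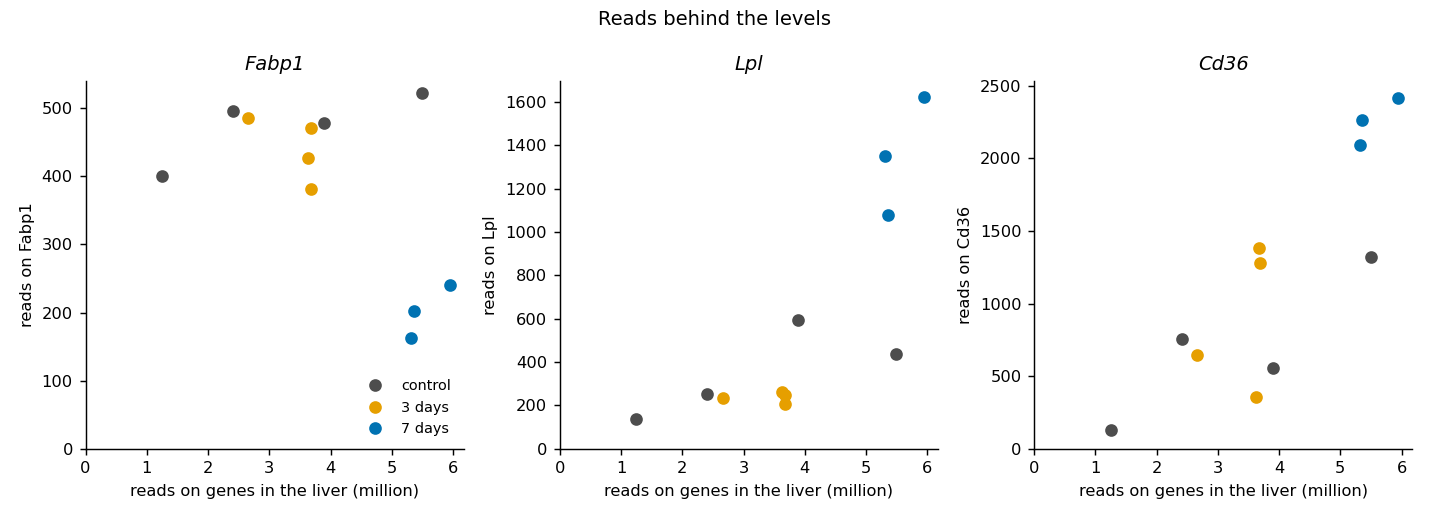
Reads on Fabp1, Lpl and Cd36 against all reads on genes in each liver, 1 point per liver. Fabp1 reads stay between 381 and 522 in control and 3-day livers over the whole range of depth and drop to 162 to 241 at 7 days, while Lpl and Cd36 reads are highest in the 7-day livers, which are among the deepest.

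Fabp4 is the fatty acid binding protein of adipocytes, macrophages and capillary endothelium. It lies on chromosome 3 (mm9, 10204347 to 10208576, minus strand). Its level was 19.8, 10.5, 11.3 and 4.84 in controls, 15.3, 2.92, 6.58 and 15.2 at 3 days, and 30.5, 38.2 and 35.6 at 7 days. The 7-day livers lay above every other liver, and the low values rested on few reads, 4 in control liver 4 and 7 in 3-day liver 2. Fabp4 rose by 1.995 on the log2 scale from 3 to 7 days (SE 0.51, limma adjusted p = 0.00977), 3.47 times in the means. The value against control, 1.69 (SE 0.51, adjusted p = 0.0198), did not pass.

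Both Fabp4 values lay near the threshold. The call against 3 days was kept in 9 of 25 alternative fits (adjusted p from 0.00156 to 0.0631), and leaving out any of the 7-day livers, control liver 2 or 3, or 3-day liver 2 or 3 ended it (adjusted p from 0.0137 to 0.0396). The value against control passed in 5 of 25, among them female livers alone (1.63, SE 0.31, adjusted p = 0.00474) and the fit without 3-day liver 2 (1.69, adjusted p = 0.00612). Over the 25 fits the value against control ran from 1.25 to 1.99, with adjusted p from 0.0044 to 0.202. All 25 kept the direction of Fabp4 in both comparisons.

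Set against each other within a liver, Fabp1 was between 12.2 and 131 times the level of Fabp4 in controls and between 16.6 and 79.5 times that level at 3 days. At 7 days the ratio was 1.69 to 2.44, below every other liver. Fabp1 was the higher of the pair in each liver. The ratio moved with depth too, since control liver 2 had 1.30 times the Fabp1 reads of control liver 4 but 9.5 times its Fabp4 reads. Control liver 2, close in depth to the 7-day livers, had a ratio of 17.9.

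Lpl, the lipase that frees fatty acids from circulating triglyceride, is low in normal adult hepatocytes and is made by macrophages as well. It lies on chromosome 8 (mm9, 71404390 to 71431347, plus strand). Its level was 14.8, 7.74, 10.1 and 10.8 in controls, 8.52, 7.06, 5.45 and 6.53 at 3 days, and 19.5, 26.5 and 24.7 at 7 days. The 7-day livers were above every other liver, and 3 of the 4 livers at 3 days were below every control. Lpl rose by 1.11 on the log2 scale at 7 days (SE 0.23, limma adjusted p = 0.00215), 2.17 times in the means, and by 1.71 from 3 to 7 days (SE 0.23, adjusted p = 0.000139). At 3 days against control the value was -0.60 (SE 0.21, 95% interval -1.06 to -0.15, unadjusted p = 0.0134, limma adjusted p = 0.269) and did not pass.

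The rise against control did not pass without 7-day liver 2 (1.02, adjusted p = 0.0146) or without 7-day liver 3 (1.07, adjusted p = 0.0136), with median-ratio size factors (0.84, adjusted p = 0.0168), with quantile normalization (0.81, adjusted p = 0.0323) or with log2 depth as a covariate (1.22, adjusted p = 0.0104). It passed in the other 20 of 25 fits. The rise from 3 to 7 days passed in all 25, with values from 1.43 to 1.90. In female livers alone the value at 7 days was 1.35 (SE 0.22, adjusted p = 0.00251).

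**Figure D4:**
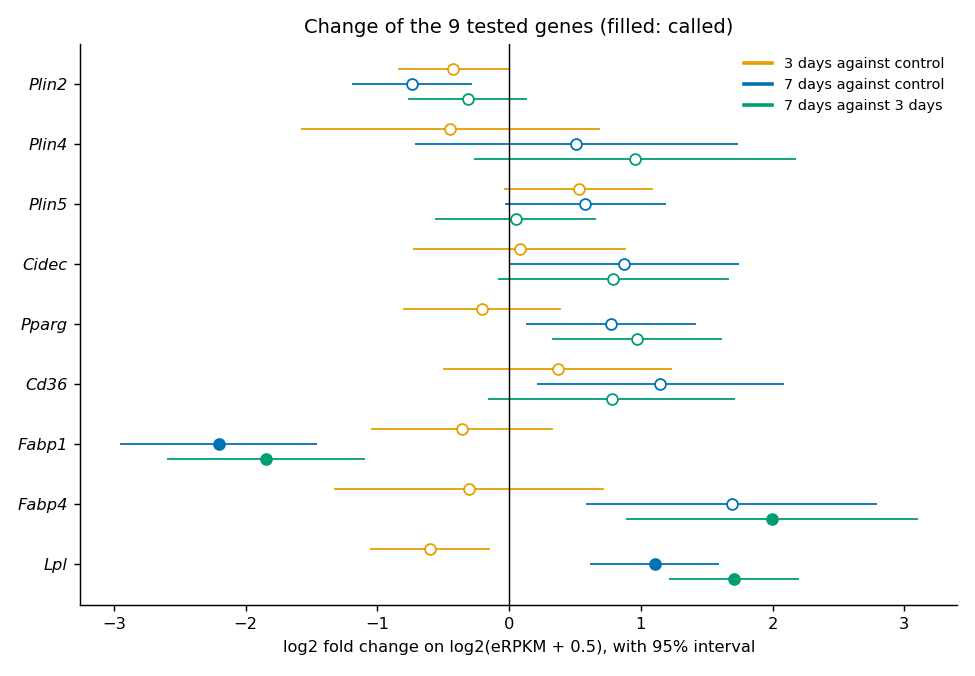
Log2 fold change on log2(eRPKM + 0.5) of the 9 tested genes in 3 comparisons, with the 95% interval from limma as a line and filled points for values past the threshold. Fabp1 (-2.20) and Lpl (1.11) are filled at 7 days against control, no gene is at 3 days, and Fabp1, Fabp4 and Lpl are at 7 days against 3 days.

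Some markers of cells that make Fabp4, Cd36 and Lpl moved at 7 days, where 18% of all tested genes rose and 5.77% fell. Of 13 macrophage markers tested, 9 rose, Trem2 by 4.41 and Marco by 3.47 on the log2 scale, and their summed level was between 250 and 502 in controls, between 318 and 570 at 3 days and between 1003 and 1086 at 7 days. Of 10 endothelial markers, 3 rose, with Lyve1 by 1.93 and Cdh5 by 1.50, and the sums were 130 to 233, 156 to 283 and 237 to 274. Lyve1 at 7 days overlapped with the controls. Kdr (-0.06), Tek (-0.29) and Vwf (-0.34) had values below 0 that did not pass. Clec4g, a lectin of liver sinusoidal endothelium, lay lower in every 7-day liver than in every control (-0.77, limma adjusted p = 0.0409, short of the threshold) and fell by 1.11 from 3 to 7 days (adjusted p = 0.00805). In 3-day liver 4, which had the highest Plin5 and the highest Cd36 of its group, both sums were also the highest of the group. Its Fabp4 (15.2) and Lpl (6.53) were not the highest, with 15.3 and 8.52 in 3-day liver 1. The part of these cells in the levels of Fabp4, Cd36 and Lpl was not tested.

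Of the 8 adipocyte markers listed, only 3 passed the low-value filter and were tested. Of these 3, 0 rose and 2 fell at 7 days, where 18% of all tested genes rose and 5.77% fell. Car3 fell by 4.88 and Adrb3 by 1.92 on the log2 scale. Car3 is also abundant in hepatocytes and made up most of the summed level of between 159 and 468 in controls, between 151 and 236 at 3 days and between 6.11 and 13.5 at 7 days. Adipoq, the defining hormone of adipocytes, had 0 reads in each 3-day liver and at most 2 in a 7-day liver. Plin1, the perilipin of fat cells, had at most 1 read in a 3-day liver and at most 4 in a 7-day liver. Among the other untested markers, Retn had 9 reads at 7 days, all in 1 liver, against 3 in controls. Lep had 6 reads in each of these groups, and Ucp1 had 4 at 7 days and 3 in controls. Control liver 1 had 19 reads on Adipoq, 46 on Cfd, another adipocyte marker, and 7 on Plin1. Among controls it also had the highest Fabp4 (19.8), Lpl (14.8) and Cidec (6.96), but not the highest Plin4, Pparg or Cd36. The part of fat tissue in these levels was not tested. Stellate cell markers (1 of 10 fell, Reln by 1.22) and biliary markers (1 of 5 rose, Krt7 by 1.51) each had 1 change, and 3 of 7 hepatocyte markers fell. Of all tested genes 18% rose and 5.77% fell. Among the hepatocyte markers Ttr fell by 1.40 and Asgr1 fell by 0.998 on the log2 scale. The part of depth in the falls of hepatocyte markers was not tested.

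Other genes of the pathway were described through 6 lists with 69 genes, of which 63 were tested. At 7 days 4 rose (6.35%) and 11 fell (17.5%), where 18% of all tested genes rose and 5.77% fell. Genes with dense reads also tilted downward: of the 2788 tested with at least 100 reads per kilobase in controls, 109 rose and 594 fell. The part of read density in the falls of the 63 genes was not tested. At 3 days 0 passed in limma, with 9 of the 63 at an unadjusted limma p under 0.05, as were 12.1% of all tested genes. From 3 to 7 days 2 rose (3.17%) and 11 fell (17.5%), where 14% of all tested genes rose and 5.31% fell. Among droplet proteins (11 tested, 1 rose, 2 fell), Hilpda, which blocks droplet lipolysis, rose by 2.03 on the log2 scale (SE 0.44, limma adjusted p = 0.00319). Hsd17b11, a droplet-bound dehydrogenase, fell by 1.30, and Cideb, the CIDE protein of hepatocytes, fell by 0.66 (SE 0.16, adjusted p = 0.00558).

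Of 7 lipolysis genes, G0s2, which inhibits the main triglyceride lipase, fell from a mean level of 76.5 to 19.6 (-2.17; SE 0.53, adjusted p = 0.00629). Pnpla2, that lipase, was higher by 1.82 at 7 days than at 3 days (adjusted p = 0.00114), and its value against control was 1.13 (adjusted p = 0.0158), short of the threshold. Of 13 genes of fatty acid transport and activation, 4 fell and 1 rose. Acsl1, the main acyl-CoA synthetase of liver, fell by 1.41, Slc27a5, a bile acid and fatty acid CoA ligase, fell by 1.33, and Slc27a3 rose by 1.38 from a mean level of 0.905.

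Of 4 other fatty acid binding proteins tested, 1 rose and 1 fell. Fabp7, the brain type, rose from a mean level of 7.36 to 106 (3.79; SE 0.37, adjusted p = 1.4e-05), and Fabp5, the epidermal type, fell from 67.0 to 16.6 (-1.94; SE 0.35, adjusted p = 0.000878). The other two, Fabp2 and Fabp3, had values of -1.24 (adjusted p = 0.0105) and 0.30 (adjusted p = 0.581) and did not pass. The mean level of Fabp7 at 7 days was above the 71.5 of Fabp1. Among 13 partners and relatives of Lpl, 2 fell and 0 rose: Lipc, hepatic lipase, by 2.11 and Lipg, endothelial lipase, by 3.68 to a mean level of 0.825. Of the 15 PPAR receptors, partners and cofactors, Ppara, the main PPAR of hepatocytes, fell by 1.35 from a mean level of 122 to 47.7 (SE 0.17, adjusted p = 7.02e-05), and Cebpd rose by 1.26.

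**Figure D5:**
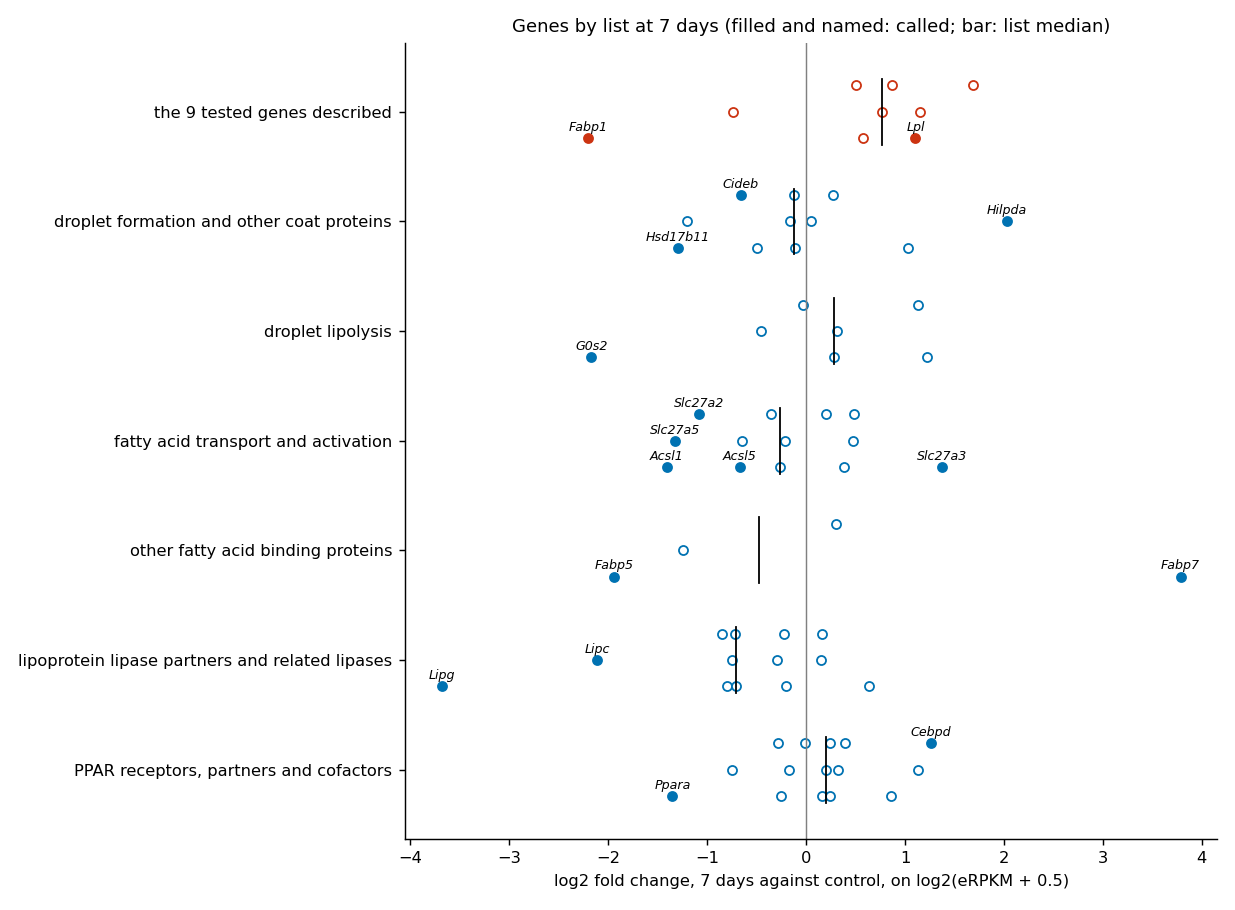
Log2 fold change at 7 days against control on log2(eRPKM + 0.5) for the 9 tested genes (red) and 63 tested genes in 6 lists (blue), 1 point per gene, filled and named where past the threshold, with a bar at each list's median. The 9 genes have a median of 0.77 and the lists medians from -0.71 to 0.29, and called genes lie on both sides of 0.

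Across the 11 livers some of the 10 genes varied together, given as a description since livers share induction time and depth. On log2(eRPKM + 0.5), Pearson's r was 0.83 for Plin2 with Fabp1, 0.78 for Fabp4 with Lpl, 0.77 for Plin5 with Cd36 and -0.82 for Cidec with Fabp1. Of all tested genes, those most like Fabp1 were Uox (r = 0.990), Slc27a2 (0.987) and Pon1 (0.985), all of them highly expressed hepatocyte genes. Those most like Fabp4 were Edn1 (0.960), Mcam (0.958) and Apobec1 (0.951), and those most like Lpl were Tmem71 (0.960), Tmem136 (0.952) and Mpp3 (0.947). Plin4 was closest to Fancc (0.969), Per3 (0.958) and Foxo1 (0.956), of which Per3 is a circadian clock gene. The closest gene was Gtf2f2 (0.942) for Plin5, Strn (0.979) for Cidec, Smarcc1 (0.964) for Pparg and Usp6nl (0.957) for Cd36.

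By level in controls the order was Fabp1 (mean 367 ± 200, SD, n = 4), Plin2 (165 ± 48.6), Cd36 (49.4 ± 23.5), Plin5 (28.9 ± 7.49), Fabp4 (11.6 ± 6.18), Lpl (10.9 ± 2.95), Pparg (6.72 ± 1.84), Plin4 (6.17 ± 3.02), Cidec (4.18 ± 2.29) and Cidea (0.205 ± 0.286). Fabp4 and Lpl, neighbours in this order, lay within an SD of each other, as did Pparg and Plin4, and Plin4 and Cidec. At 7 days Cd36 (101 ± 3.55, n = 3) and Plin2 (95.4 ± 4.68) headed the order, ahead of Fabp1 (71.5 ± 10.2).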

How the data were processed

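Bulk RNA-seq of 11 whole livers was used, grouped by their labels into control (4), 3-day (4) and 7-day (3) livers. Before alignment the authors masked bases of low quality. They mapped the pairs to mm9 by TopHat 2.0.8, without strand, and deposited RPKM values (eRPKM), 1 column per liver. The submitters' processing notes also name featureCounts 1.4.5-p1 and DESeq2. The gene annotation and the handling of duplicate reads are not given in the sources used here. Deposited columns with the authors' DESeq2 comparison of 7 days against control (a mean signal, the log2 change and its adjusted p-value) were not used.

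Genes with an eRPKM of 0.5 or more in 3 or more livers entered a limma fit (version 3.58.1 under R 4.3.3, trended eBayes) of log2(eRPKM + 0.5), in which all 11 livers were included without covariates and Benjamini-Hochberg adjustment over all 14244 genes. This scale understates the change of low genes. The thresholds follow the study's methods. Its count test was replaced because the table holds no counts. Low values were whole multiples of 1 read, and all 177553 values above 0 (100%) came within 0.1 of a whole read. The size of 1 read was picked for each gene so that its values fell near whole numbers. This share therefore follows in part from that choice, most in genes with reads in few livers. The recovered reads gave depth and a limma-voom alternative. Intervals are 95% limma intervals over livers. Single values had exact two-sided permutation tests. The limma step was tested on simulated data. Python 3.11.15, numpy 2.4.6, pandas 2.3.3 and matplotlib 3.10.9 were used.

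The genes and lists were chosen with earlier results of these data known. From each other list, up to 2 rises and 2 falls by size among called genes are named, and for likeness the 3 closest genes by Pearson's r. Pnpla2, Slc27a2, Fabp2, Fabp3, Clec4g, Adipoq, Cfd, Plin1, Yap1, Ctgf and Cyr61 were added after their values were seen or as checks. Of the closest genes, for Plin5, Cidec, Pparg and Cd36 only the first is printed, and that of Plin2 is not reported here. Gene positions are from GENCODE M1 (mm9) and promoters from RefSeq (GRCm38.p6), which is another build. Alternatives were pseudocounts of 1 and 0.1, other low-value filters, median-ratio size factors, quantile normalization, only the 2 compared groups, no trend, the replicate number as a block, log2 Xist, log2 depth, female livers, limma-voom, a looser threshold (adjusted p under 0.05 at whatever fold change), and leaving out each liver.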

Additional observations from a re-analysis of the deposited data

Results flagged for a closer look

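For 3 of the genes the 3-day and 7-day effects differed by the test of the difference itself, which is the comparison of 7 with 3 days. The log2 fold changes against control were -0.36 and -2.20 for Fabp1, a difference of -1.84 (limma adjusted p = 0.00158). For Fabp4 they were -0.31 and 1.69, a difference of 1.995 (adjusted p = 0.00977). For Lpl they were -0.60 and 1.11, a difference of 1.71 (adjusted p = 0.000139). The mean levels of Fabp4 and Lpl were lower at 3 days than in controls and highest at 7 days, and only the 7-day part passed the test for Lpl.

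In 20 sets of 4 livers examined (10 genes in controls and at 3 days), 1 liver stood apart from its group: 3-day liver 4 for Cidea, where its gap made up the whole range (1.0). That liver had 1 read and the others 0, so the gap is that of 1 read. Chance alone sets about 1 in 20 such groups apart.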

How the results depend on the processing

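With 3 or 4 livers per group and 1251396 reads in the shallowest control, low genes such as Cidea, Cidec, Pparg and Fabp4 rested on few reads in some livers. Depth and sex were not balanced over the groups. Over 25 alternatives, 0 of the 10 genes passed at 3 days. Fabp1 at 7 days (-2.47 to -1.37) and Lpl against 3 days passed in all 25. Fabp1 against 3 days was lost without 7-day liver 3 (-1.73, adjusted p = 0.0110).

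At 7 days against control, 2 of the genes passed, and 1 did (Fabp1) with size factors, quantile normalization or log2 depth, 4 at the looser threshold (adjusted p under 0.05 at whatever fold change), and 1 to 3 when a liver was left out. From 3 to 7 days 1 to 3 passed with a liver left out. Of the other pathway genes 9 passed in female livers, 9 with log2 depth, 25 at the looser threshold, and 9 to 18 with a liver left out. Over all genes at 3 days, where 6 passed, the count was 3 without a filter, 12 with size factors, 0 with only the 2 groups, 0 without trend, 16 with log2 Xist, 1 with log2 depth, 1 with limma-voom, 41 at the looser threshold, and 0 (without 3-day liver 2, for example) to 54 (without 3-day liver 1) with a liver left out. At 7 days against control, where 3383 passed, it was 2128 in female livers, 1676 with log2 depth, 5390 at the looser threshold and 2057 to 3684 with a liver left out. Against 3 days, where 2753 passed, it was 1424, 1679, 5085 and 1412 to 3683. Fewer livers entered the fits in female livers, and the cause of the other shifts was not tested. Size factors moved the median log2 fold change of all genes at 7 days from 0.26 to 0.03 and quantile normalization to -0.08, and the split of 2561 higher and 822 lower calls became 1951 and 1254 or 1857 and 1821. Against 3 days the split of 1997 and 756 became 1515 and 1181 or 1436 and 1430.

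Direction reversed for values that had not passed. Plin2 against 3 days was 0.16 and Plin4 at 7 days was -0.088 with quantile normalization, and Plin4 was -0.34 with log2 depth. Plin5 against 3 days was -0.19 with size factors, -0.19 with log2 Xist, -0.23 in female livers, -0.15 with log2 depth, and -0.11, -0.04 and -0.01 without 3-day liver 2, 3-day liver 3 or 7-day liver 2 (0.33 without 3-day liver 4). Cidec at 3 days was -0.13 with log2 depth, -0.074 with limma-voom, and -0.31, -0.04 and -0.04 without control liver 4, 3-day liver 2 or 3-day liver 3 (0.36 without control liver 1). Fabp4 at 3 days was 0.15 without 3-day liver 2 and -0.65 without control liver 4.

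The replicate numbers did not pair the samples: over 10 same-numbered pairs the correlation of deviations from the group mean ran from -0.22 to 0.27, with 2 over 0.1, and that of other pairs from -0.28 to 0.24. With the replicate number as a block, 3 genes passed at 3 days, 2720 at 7 days and 1981 against 3 days, with 2 of the 10 genes at 7 days, 2 against 3 days and 14 other pathway genes.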
